A study of Mus musculus with 2 samples.

Results

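The dystrophin-glycoprotein complex and the membrane repair protein dysferlin were followed through 8 genes, Dmd, Utrn, Dag1, Sgca, Sgcb, Sgcd, Dtna and Dysf, which were taken by symbol from the 19465 genes of the deposited gene list. All 8 were present and all had UMIs in both sections. The study asked how overexpression of topoisomerase II beta (TOP2B) in cardiomyocytes changes the heart. It used Visium CytAssist, in which pairs of probes for each mouse gene are hybridized to a formalin-fixed, paraffin-embedded section and counted by unique molecular identifier (UMI) on a grid of barcoded spots. The control section came from an α-MHC-MerCreMer+/− mouse and the transgenic section from an α-MHC-MerCreMer+/− hTOP2B LSL/− mouse, with 1 section of each.

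Both animals carried the MerCreMer transgene, a tamoxifen-dependent Cre that the α-MHC promoter drives in cardiomyocytes, and both received a single intraperitoneal dose of 80 mg/kg of tamoxifen. The transgenic animal also carried 1 copy of a human TOP2B cDNA behind a CAG promoter and a floxed STOP cassette at Rosa26, so recombination was limited to cells with Cre. The study's methods give an age of 6 weeks for this dose, but the age of these 2 animals and the day of collection were not given for the sections. Sections were 5 μm thick on a capture area 6.5 mm wide. Because each genotype had 1 section, no test between genotypes was possible, and intervals below cover counting error only. Spots of a section are not replicates, and the range over 4 quadrants of a section is given as the spread inside it.

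Dystrophin ties cortical actin to dystroglycan, which spans the cardiomyocyte membrane and binds laminin outside the cell. The sarcoglycans and sarcospan hold this link together at the membrane, and dystrobrevin and the syntrophins attach to dystrophin on the inner face. Dysferlin helps vesicles fuse to reseal a torn membrane, and loss of any of several of these proteins causes muscular dystrophy, often with cardiomyopathy.

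The control section had 1256 spots with 14376300 UMIs and the transgenic section 924 spots with 12953389 UMIs, 1 of which had no UMI. The median spot had 11336 and 14531 UMIs, respectively. The 2 sections shared 725 spot barcodes, which are positions on the same array design. Cardiomyocyte markers (11 genes counted, none at 0) took 11.9% of the control UMIs and 5.62% of the transgenic UMIs. Of these genes, 10 were lower and 1 was higher in the transgenic section. Their log2 ratios, transgenic over control, ran from -1.92 for Tnni3 to 0.17 for Tnnt2, with Tnnc1 at -0.21. Spots called cardiomyocyte-rich below are rich in these marker UMIs, and their number of cardiomyocytes is not known. They were ranked inside each section, so a ratio between the sections in such spots does not compare like marker shares. The median share was 7.26% in the 307 richest transgenic spots and 11.1% in the 418 poorest control spots. Fibroblast markers went from 0.207% to 0.628%, macrophage markers from 0.0225% to 0.0447%, and erythroid markers from 0.215% to 2.04%, whereas endothelial markers took 0.176% and 0.1697%. Nppa, a natriuretic peptide gene, was at 274 CPM (UMIs per 1000000 of a section) in the control and at 20250 CPM in the transgenic section. Mouse Top2b was at 106 and 102 CPM, and whether its probes read the human cDNA is not known, so this value does not check the labels. In a spot, fewer cells of a type and less RNA per cell cannot be told apart.

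The regions just before the start of the 3 sarcoglycan genes, which were all lower in the transgenic section, and of Dmd, which was not, are shown so that the genes can be compared in sequence. Each is the 250 bases upstream of a RefSeq gene start on build GRCm38.p6, read 5′ to 3′ on the gene's strand. Windows were read for 7 of the 8 genes and not for Dtna. Dmd had more than 1 listed start, of which the first is printed. Sgca lies at chr11:94976328-94976577 and Sgcd at chr11:47379326-47379575, both on the minus strand. Sgcb lies at chr5:73647738-73647987 on the minus strand and Dmd at chrX:82948620-82948869 on the plus strand. Capitals mark matches on either strand to common promoter motifs, which may overlap. The E-box, bound by myogenic factors, was searched as CANNTG. For sites of GATA factors the letters were AGATAA. The MCAT element of muscle genes was searched as CATTCC. For the box bound near the start by general factors, the TATA box, the search used the letters TATAAA. The GC box was searched as GGGCGG.
Sgca: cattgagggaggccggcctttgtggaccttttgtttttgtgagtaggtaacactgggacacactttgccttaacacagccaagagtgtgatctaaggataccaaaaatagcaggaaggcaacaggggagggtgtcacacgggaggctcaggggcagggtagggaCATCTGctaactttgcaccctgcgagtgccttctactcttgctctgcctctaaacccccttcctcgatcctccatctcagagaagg
Sgcb: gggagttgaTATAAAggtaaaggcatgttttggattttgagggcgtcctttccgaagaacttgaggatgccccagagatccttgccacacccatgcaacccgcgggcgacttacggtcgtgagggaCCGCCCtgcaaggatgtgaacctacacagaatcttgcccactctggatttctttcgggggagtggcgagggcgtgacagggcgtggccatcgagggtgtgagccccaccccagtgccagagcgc
Sgcd: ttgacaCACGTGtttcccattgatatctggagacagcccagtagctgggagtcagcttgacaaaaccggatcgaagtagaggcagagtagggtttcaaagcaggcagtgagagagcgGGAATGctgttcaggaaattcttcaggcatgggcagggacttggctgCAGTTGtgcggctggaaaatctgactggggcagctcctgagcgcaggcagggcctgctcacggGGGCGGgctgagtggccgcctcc
Dmd: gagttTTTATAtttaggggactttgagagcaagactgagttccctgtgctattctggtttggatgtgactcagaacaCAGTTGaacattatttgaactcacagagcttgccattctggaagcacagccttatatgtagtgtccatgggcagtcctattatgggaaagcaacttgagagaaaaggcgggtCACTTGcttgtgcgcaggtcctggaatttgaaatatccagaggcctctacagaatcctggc
The Sgca window held 1 E-box, the Sgcb window 1 TATA box and 1 GC box, and the Sgcd window 2 E-boxes, 1 MCAT site and 1 GC box. The Dmd window held 2 E-boxes and 1 TATA box. Both TATA box matches lay at the end of the window farthest from the gene start, and that of Dmd was on the opposite strand. Over all 32851 windows in the RefSeq table, 66.2% held an E-box, 9.99% a GATA site, 12.6% an MCAT site, 12.4% a TATA box and 32.7% a GC box. None of these motifs was in the windows of all 3 sarcoglycan genes. A match describes letters and not a bound site.

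In the comparison of the sections, 6 of the 8 genes were lower and 2 were higher in the transgenic section, and the largest difference was in Sgcd. The median log2 ratio of the 8 genes, transgenic over control, was -0.28, against 0.20 for all 15236 genes with at least 20 UMIs over both sections. Sgcd was the 1 member at least 2-fold lower, and 5.61% of all genes were. No member was at least 2-fold higher, against 13.7% of all genes. The quadrants of the sections did not overlap for 2 members that were higher in the transgenic section and 4 that were lower, against 30.3% and 13.1% of all genes. The summed cardiomyocyte markers had a log2 ratio of -1.08 and the summed erythroid markers one of 3.25, and their part in these ratios was not tested.

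**Figure D1:**
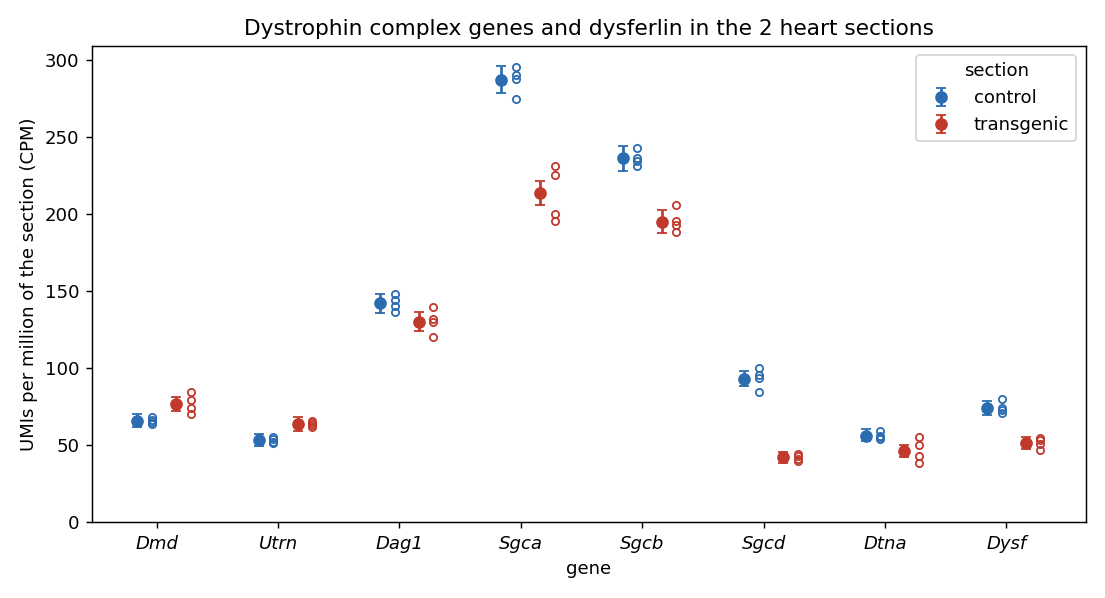
Level of each gene in UMIs per 1000000 of the section (CPM) in the control (blue) and the transgenic section (red). Filled points with bars are the section and its exact 95% Poisson interval, and open points are the 4 quadrants. Sgcd stands at 93.3 and 42.1 CPM, with quadrants that do not overlap, whereas the quadrants of Dag1 and Dtna overlap.

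Dmd, which encodes dystrophin, had 947 UMIs in the control and 993 in the transgenic section, or 65.9 and 76.7 CPM. Control quadrants ranged from 63.9 to 68.1 CPM and transgenic quadrants from 69.9 to 84.2 CPM, so the transgenic section was the higher one in every quadrant. The log2 ratio was 0.22 (95% interval 0.09 to 0.35), close to the median of all genes, and 51.0% of genes had a lower ratio. Counts of Dmd cannot separate the full-length transcript from shorter ones, because probe positions were not given in the sources used here.

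Utrn encodes utrophin, a dystrophin homolog that can take the place of dystrophin at the membrane. It had 765 UMIs in the control and 824 in the transgenic section, or 53.2 and 63.6 CPM. The quadrants ranged from 51.3 to 55.3 CPM and from 61.7 to 65.6 CPM, and again did not overlap. The log2 ratio was 0.26 (0.11 to 0.40). With TMM scaling, which moved all ratios by -0.16, the ratios of Dmd and Utrn came to 0.06 and 0.10, against 0.05 for the median of all genes. Utrn made up 44.7% (exact 95% binomial interval 42.3 to 47.1) of the summed Dmd and Utrn UMIs in the control and 45.3% (43.0 to 47.7) in the transgenic section. This share does not depend on scaling, and its quadrants overlapped, at 43.9% to 46.4% and 43.2% to 46.9%. A shift from dystrophin to utrophin was therefore not detectable at this depth.

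Dtna encodes α-dystrobrevin, which binds dystrophin and the syntrophins. It had 809 and 596 UMIs, or 56.3 and 46.0 CPM, in the control and transgenic sections. Its quadrants overlapped, at 54.2 to 59.5 CPM and 38.5 to 55.0 CPM, although the interval of the log2 ratio, -0.29 (-0.45 to -0.14), did not reach 0. The paralog Dtnb had only 35 and 47 UMIs. Its share of the pair was 4.15% and 7.31%, with overlapping intervals of 2.91 to 5.72% and 5.42 to 9.60%.

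Dag1 encodes both subunits of dystroglycan. It had 2043 UMIs (142 CPM) in the control and 1686 UMIs (130 CPM) in the transgenic section. Quadrants ranged from 137 to 148 CPM and from 120 to 140 CPM and so overlapped. The log2 ratio of -0.13 (-0.22 to -0.03) was the smallest in size among the 8 genes, and it ranged from -0.28 with TMM factors to -0.03 in the 50% of spots poorest in erythroid UMIs.

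The sarcoglycans Sgca, Sgcb and Sgcd are parts of a subcomplex of the muscle membrane. Sgca had 4131 UMIs (287 CPM) in the control and 2767 UMIs (214 CPM) in the transgenic section, and its quadrants lay at 275 to 295 CPM and 195 to 232 CPM. Sgcb had 3395 UMIs (236 CPM) and 2528 UMIs (195 CPM), with quadrants at 231 to 243 CPM and 188 to 206 CPM. All transgenic quadrants of both genes were below all control quadrants. The log2 ratios were -0.43 (-0.50 to -0.36) for Sgca and -0.28 (-0.35 to -0.20) for Sgcb. In the 50% of spots richest in cardiomyocyte markers, the ratio of Sgca was -0.28.

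Sgcd, δ-sarcoglycan, is the gene whose loss causes cardiomyopathy in hamsters and mice. It had 1341 UMIs in the control and 545 in the transgenic section, or 93.3 and 42.1 CPM. Control quadrants ranged from 84.4 to 100.1 CPM and transgenic quadrants from 39.7 to 44.4 CPM, so the difference exceeded the spread inside either section. The log2 ratio was -1.15 (-1.29 to -1.004), a level 2.22-fold lower, and 3.98% of all genes had a lower ratio. It was -1.30 in the cardiomyocyte-rich 50% of spots of each section.

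Within the summed UMIs of Sgca, Sgcb and Sgcd, Sgcd took a smaller share in the transgenic section. It was 15.1% (14.4 to 15.9) of 8867 UMIs in the control and 9.33% (8.60 to 10.1) of 5840 in the transgenic section, with quadrants at 13.8 to 16.2% and 8.76 to 9.64%. The share of Sgca was 46.6% and 47.4%, with overlapping quadrants. Sgcb took 38.3% of the control and 43.3% of the transgenic sum, with quadrants at 37.6 to 39.3% and 41.2 to 45.8%. UMIs of different genes depend on their probes, so these shares give no stoichiometry and only their difference between sections can be read.

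Dysf, which encodes dysferlin, had 1067 UMIs (74.2 CPM) in the control and 665 UMIs (51.3 CPM) in the transgenic section. Its quadrants lay apart, at 70.9 to 79.7 CPM and 46.8 to 54.5 CPM. The log2 ratio was -0.53 (-0.67 to -0.39), and in the cardiomyocyte-rich 50% of spots of each section it was -0.42.

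The paralogs of 2 of the lower genes went the other way. Myof, which encodes myoferlin, a ferlin of myoblasts and endothelial cells, had 63 UMIs in the control and 197 in the transgenic section. The ratio on the log2 scale was 1.80 (1.38 to 2.23). Its share of the summed Dysf and Myof UMIs was 5.58% (4.31 to 7.08) and 22.9% (20.1 to 25.8), and the quadrants, at 3.93 to 6.74% and 15.3 to 29.9%, did not overlap. Sgce, which encodes ε-sarcoglycan, a widely expressed relative of Sgca, had 370 and 691 UMIs in the 2 sections, which gave 1.05 (0.87 to 1.24) on the log2 scale. Its share of the summed Sgca and Sgce UMIs was 8.22% (7.43 to 9.06) and 19.98% (18.7 to 21.4), with quadrants at 7.16 to 8.93% and 16.7 to 25.0%.

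In the cardiomyocyte-rich 50% of spots of each section, the Myof share came to 4.09% in the control and 15.0% in the transgenic section, and the transgenic Sgce share to 15.7%. The summed fibroblast markers had a log2 ratio of 1.60 between the sections, and their part in the levels of both paralogs was not tested. The 9 markers ran from 0.001 for Gsn to 2.68 for Col1a1. The collagen genes Col1a1, Col1a2 and Col3a1 held 14264, 22615 and 22756 of the 81361 summed UMIs in the transgenic section. Spots called fibroblast-rich below are rich in these marker UMIs, and their number of fibroblasts is not known.

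**Figure D2:**
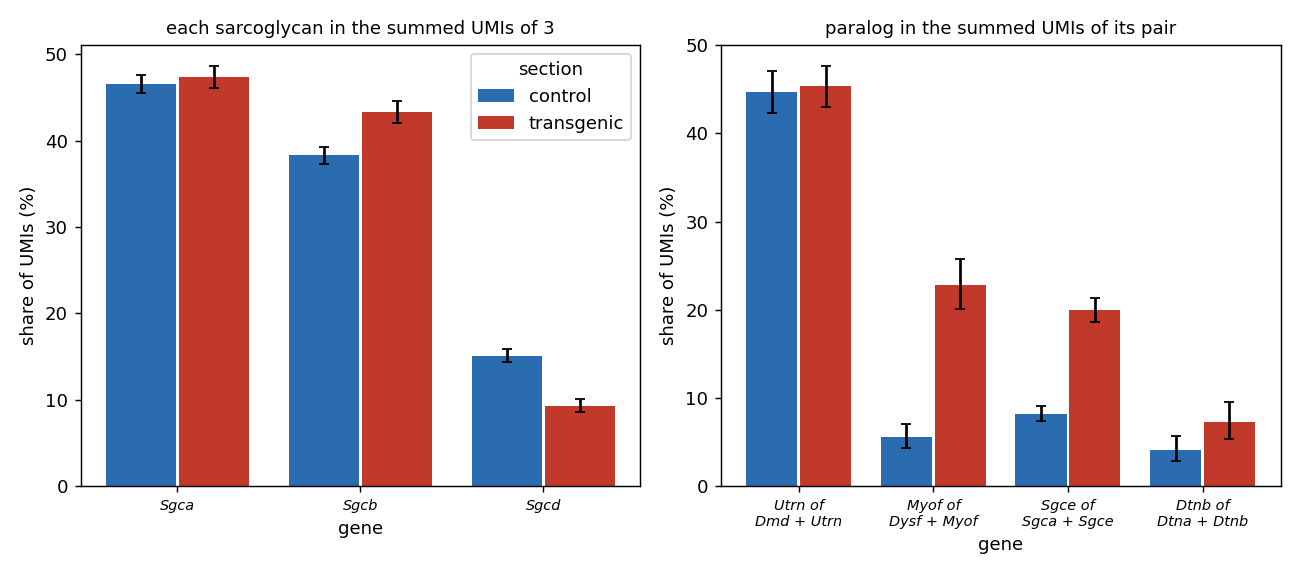
Left, share of each sarcoglycan in the summed UMIs of Sgca, Sgcb and Sgcd. Right, share of a paralog in the summed UMIs of its pair. Bars are the control (blue) and transgenic (red) section with exact 95% binomial intervals. The Sgcd share is 15.1% and 9.33%, the Myof share 5.58% and 22.9%, and the Utrn share 44.7% and 45.3%.

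Other proteins of the complex also lay on both sides. Of 9 listed genes, 7 had enough UMIs, of which 2 were at least 2-fold higher and 1 at least 2-fold lower in the transgenic section, against 13.7% and 5.61% of all genes. Their median log2 ratio was 0.79. Sspn, which encodes sarcospan, had 1568 UMIs in the control and 625 in the transgenic section and a log2 ratio of -1.18. Its quadrants lay at 104 to 117 CPM and 44.8 to 50.3 CPM, and like Sgcd it was below the control in every quadrant. Cav3, the caveolin of muscle, was lower at -0.34. Lama2, the laminin chain that dystroglycan binds outside the cell, was higher at 1.04, with 1148 and 2131 UMIs. The syntrophins Sntb1 and Sntb2 were at 0.92 and 0.79. The count of genes at least 2-fold higher depended on the scaling and was 0 with TMM factors.

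The genes listed for dystroglycan glycosylation, which include genes for making sugar donors, showed none past 2-fold in either direction among 14 counted. Over all genes, 13.7% were at least 2-fold higher and 5.61% at least 2-fold lower. The median log2 ratio of the listed genes was 0.04, against 0.20 for all genes. Pomt1 and Pomgnt2 were at -0.69 and -0.65. B3galnt2 was at -0.36, and Gmppb at -0.19 with an interval that included 0. Rxylt1 was at 0.66, Pomt2 at 0.14, and the dolichol phosphate mannose synthase genes Dpm1 and Dpm2 at 0.30 and 0.25.

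Among 24 counted genes of membrane repair other than Dysf, 6 were at least 2-fold higher and 0 at least 2-fold lower in the transgenic section, with a median log2 ratio of 0.63. Over all genes these shares were 13.7% and 5.61% and the median was 0.20. Quadrants lay apart for 17 genes in the higher and 3 in the lower direction, against 30.3% and 13.1% of all genes, so the lower count was near that of all genes. The annexins bind phospholipid at a wound. Anxa1 was at 1.80, Anxa5 at 1.71 and Anxa2 at 1.71, whereas Anxa6 was at 0.63, near the median of the list, and the annexin A2 partner S100a10 was at 1.28. Anxa5 had 2621 UMIs in the control and 7745 in the transgenic section, and its quadrants lay at 177 to 187 CPM and 572 to 656 CPM. Trim72, also called MG53, which brings vesicles to an injury in muscle, differed in the same direction as Dysf. Its 5936 and 3123 UMIs gave -0.78 on the log2 scale, with quadrants at 391 to 433 CPM and 213 to 260 CPM. Syt7, a calcium sensor of lysosome fusion, was at -0.66, Smpd1, the acid sphingomyelinase, at -0.37, and Cavin1 at 0.12.

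Genes of the costamere, the rib-like site where the contractile apparatus meets the membrane, lay on both sides. Of 11 genes, 2 were at least 2-fold higher and 2 at least 2-fold lower, against 13.7% and 5.61% of all genes. Tln1, Itgb1, Vcl and Itga7, which belong to the integrin link to laminin, were at 1.23, 1.198, 0.87 and 0.84. Ank2, an ankyrin of the cardiomyocyte, was lower at -1.96, with 6055 UMIs in the control and 1400 in the transgenic section. Another ankyrin gene, Ank3, was higher at 0.47. Itgb1bp2, the muscle chaperone melusin, was at -1.34. Tln2, the talin of muscle, was at -0.81, and Sync, which encodes syncoilin, at -0.75.

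**Figure D3:**
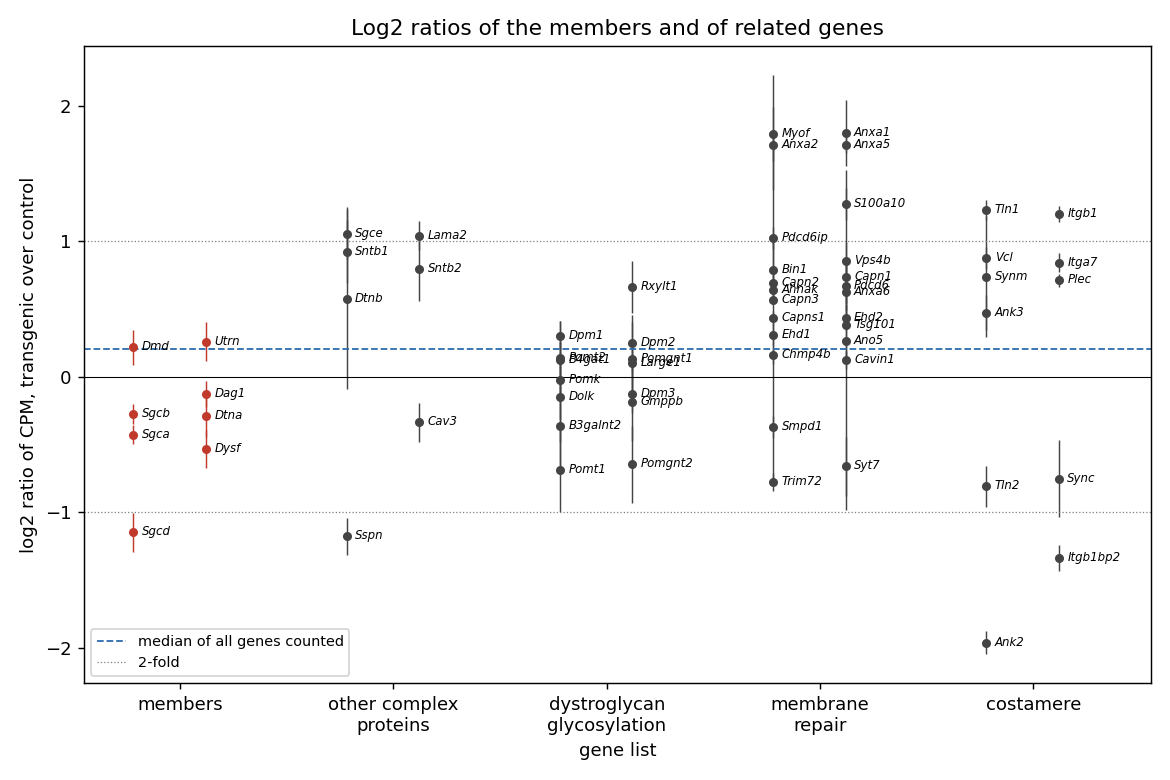
Log2 ratio of CPM, transgenic over control, of each gene with at least 20 UMIs, by list (x axis). Bars are exact 95% intervals of counting error, the dashed line is the median of all genes (0.20), and dotted lines mark 2-fold. The 8 members (red) lie between -1.15 and 0.26, whereas the membrane repair list reaches 1.80.

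The share of spots with a UMI followed the levels and the depth of the spots. Sgcd had a UMI in 63.0% of control and 42.0% of transgenic spots, and in 52.8% and 30.1% after each spot was thinned to 8134 UMIs. Dysf went from 55.8% to 49.1%, and from 45.2% to 32.2% after thinning. Dmd was in 51.9% and 62.6% of spots (41.1% and 47.3% thinned), and Utrn in 45.1% and 56.8% (36.3% and 40.7% thinned). For Sgca the shares were 93.2% and 90.6%, which thinning to equal depth turned into 90.3% and 82.2%. Thinning left out 140 control and 78 transgenic spots that were shallower.

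Inside the control section the UMIs of most of the 8 genes varied over spots about as much as counting alone gives, and Sgca and Sgcb varied more. For the 8 genes, the variance of UMIs over spots was 0.94 to 1.14 times the value for counting alone at the spots' depths. In the transgenic section it was 1.02 to 1.08 times. At so few UMIs per spot, a value near 1 does not show an even spread. Sgca was at 1.14 and Sgcb at 1.13 in the control, against 1.08 and 1.07 in the transgenic section, where their Moran's I was the larger. If every spot had held the section's mean share, 51.9% of control spots would have had a Dmd UMI, and 51.9% did. For Dag1 these values were 78.2% and 77.0%. The deposited Moran's I, which is near 0 for a gene with no spatial pattern, ranged from -0.007 to 0.024 over the 8 genes in the control, with a median of 0.004. In the transgenic section it ranged from 0.023 to 0.166, with a median of 0.050, against 0.014 over all genes.

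Moran's I is larger for genes with more UMIs, so each gene was set beside genes within 1.2-fold of its UMI number. Sgca, the most patterned member, was at 0.166 in the transgenic section, and 49.2% of 317 such genes had a lower value. Sgcb was at 0.124 with 29.3% lower and Dmd at 0.026 with 9.16% lower. Dysf was at 0.059 with 86.9% lower, so its pattern was the strongest for its depth among the 8 genes in that section.

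**Figure D4:**
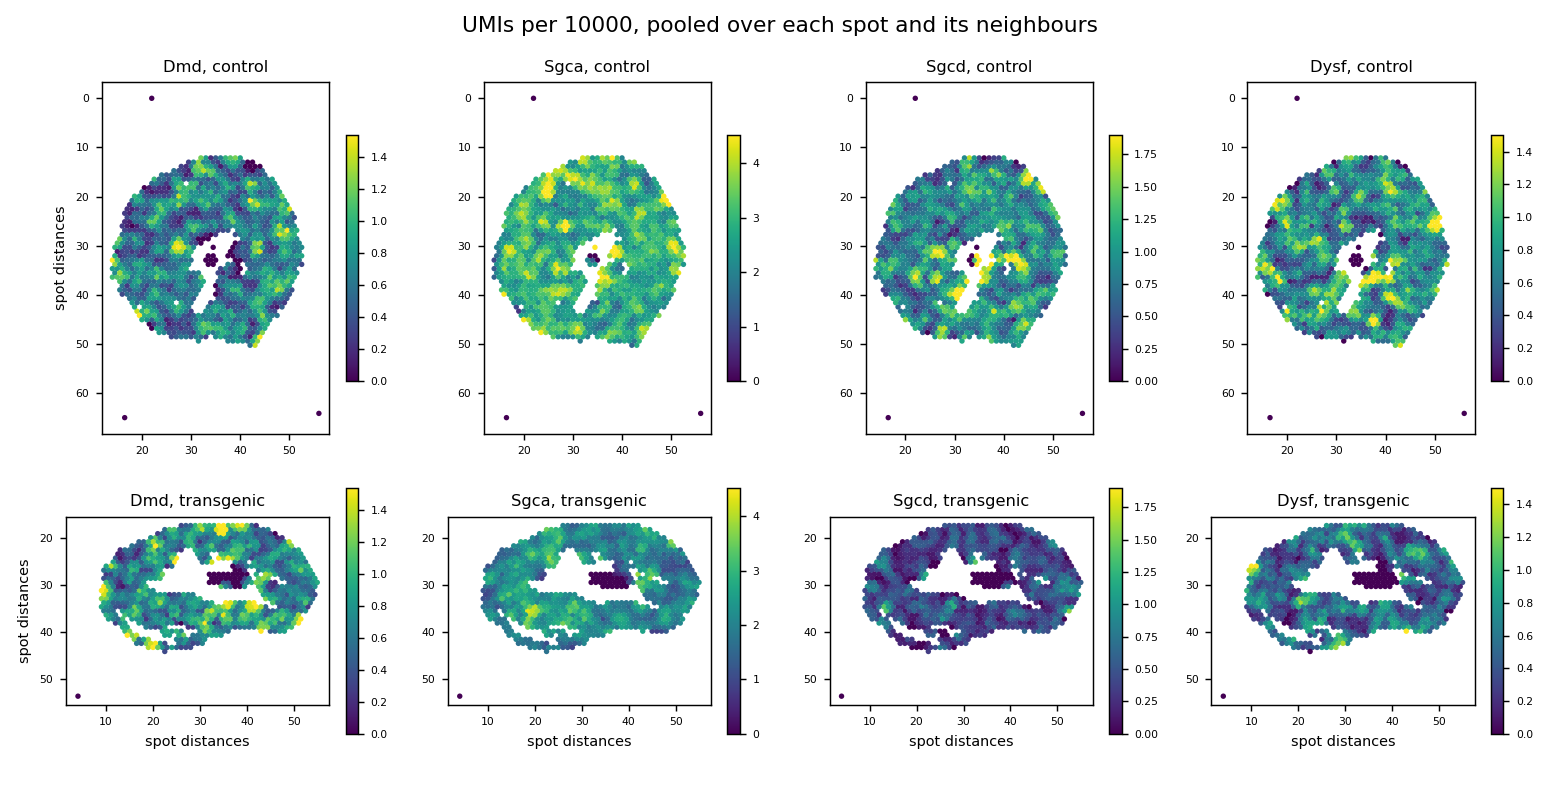
Maps of Dmd, Sgca, Sgcd and Dysf in UMIs per 10000, each pooled over a spot and its up to 6 neighbours, in the control (top) and transgenic (bottom) section. Axes are in spot distances, and a gene has the same color scale in both sections. Sgcd is darker over the whole transgenic section, and a dark block in that section holds spots rich in erythroid UMIs.

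In the transgenic section 40 spots had at least 50% erythroid UMIs, against 5 in the control, a limit that was set after the values were seen. They held 24 UMIs of the 8 genes together, or 142 CPM (91.3 to 212), against 828 CPM in the other transgenic spots. Of the 29 transgenic spots with no UMI of any of the 8 genes, 26 were among them. These spots held 1.30% of the section's UMIs. Leaving them out changed the direction of none of the 8 ratios between sections, whose median was then -0.27.

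The edge of the tissue was compared with the interior. For most genes the interval of the log2 ratio, edge over interior, included 0. The exceptions were Dag1 in the control, at -0.29 (-0.49 to -0.10), and Dmd in the transgenic section, at 0.24 (0.04 to 0.43). The medians of all genes were 0.04 and -0.01. In each section, 8 genes were compared, and the intervals are not adjusted for this.

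Sgca followed the cardiomyocyte markers in the transgenic section. It was at 181 CPM in the 307 spots with the lowest marker share and at 251 CPM in the 307 spots with the highest, a log2 ratio of 0.47 (0.34 to 0.61). In the control the same comparison over 418 spots each gave 279 and 290 CPM and a log2 ratio of 0.05 (-0.06 to 0.16). The median marker share of the lowest and highest spots was 4.16% and 7.26% in the transgenic section. In the control it was 11.1% and 12.6%, so these medians lay closer together there. Across transgenic spots, Sgca had r = 0.39 with the marker share, over 923 spots that share a library and differ in depth. Among them are the 40 spots with at least 50% erythroid UMIs, where cardiomyocyte markers took 0.603% of UMIs. No r is given without these spots. The other 7 members had r of 0.04 to 0.18, the highest being Sgcb.

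For Sgcb and Sgcd the same comparison in the transgenic section gave -0.07 (-0.21 to 0.07) and -0.13 (-0.43 to 0.18), against a median of -0.16 over all genes. In the control, Sgcd was higher in the cardiomyocyte-rich spots, at 81.3 and 103 CPM and 0.34 (0.14 to 0.54). Sgcb was lower there at -0.19 (-0.307 to -0.067), an interval that included the control median of all genes, -0.071. For Dmd and Dag1 the values in both sections lay within 0.04 of 0 with intervals that included 0.

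When the spots were ranked by fibroblast markers, Sgca was lower in the fibroblast-rich spots of the transgenic section, at -0.42 (-0.56 to -0.28), whereas the median of all genes was 0.25. Its paralog Sgce was higher there at 1.02 (0.73 to 1.33), and Myof at 1.65 (1.06 to 2.28). Of Myof, 30 UMIs fell in the fibroblast-poor and 109 in the fibroblast-rich spots. In the control, Myof was also higher in fibroblast-rich spots, at 1.55 (0.46 to 2.76) from 10 and 27 UMIs, and Sgce was at 0.24 (-0.13 to 0.61). The fibroblast-rich spots lay more often at the edge than the fibroblast-poor spots, 40.1% against 23.5% in the transgenic section and 33.0% against 9.33% in the control.

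**Figure D5:**
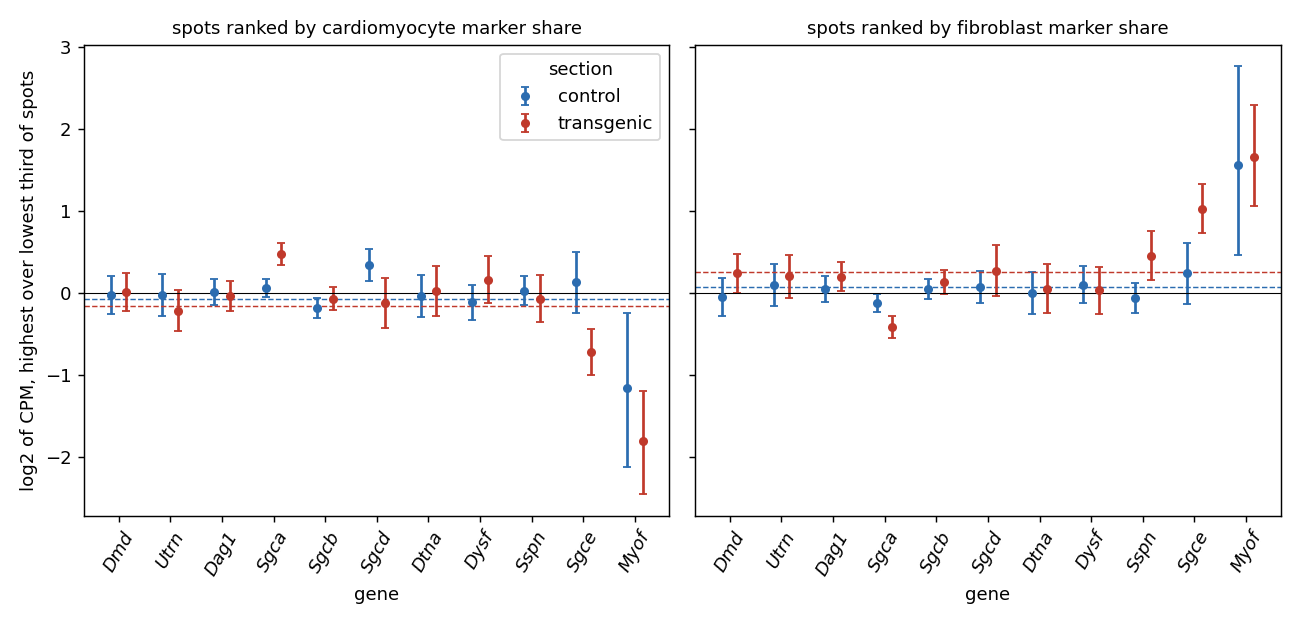
Log2 ratio of CPM between the spots ranked highest and lowest inside each section by the share of cardiomyocyte (left) or fibroblast (right) marker UMIs, 418 of each in the control (blue) and 307 in the transgenic section (red). Bars are exact 95% intervals of counting error and dashed lines are the medians of all genes. Sgca in the transgenic section is at 0.47 on the left and -0.42 on the right, and Sgce and Myof are at 1.02 and 1.65 on the right.

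In the control spots poorest and richest in endothelial markers, Dysf was at 65.7 and 81.4 CPM, a log2 ratio of 0.31 (0.09 to 0.53). In the transgenic section it was at 0.16 (-0.12 to 0.44). Sgca was higher in endothelial-rich spots of both sections, at 0.18 (0.07 to 0.29) and 0.21 (0.08 to 0.35). Myof was lower in those of the transgenic section, at -0.63 (-1.15 to -0.13), and at 0.03 (-0.82 to 0.88) in the control. By macrophage markers, Myof was at 0.98 (0.42 to 1.56) in the transgenic section and at -0.30 (-1.28 to 0.67) in the control. In the transgenic section, the spots with the most Nppa had more Sgcb, at 0.29 (0.14 to 0.43), more Dmd, at 0.27 (0.03 to 0.50), and more Dag1, at 0.22 (0.04 to 0.40). The median of all genes was 0.12, which lay inside the intervals of Dmd and Dag1 and below that of Sgcb. The same spots had less Sgca, at -0.16 (-0.29 to -0.03). Several rankings of the spots were made for many genes in both sections, and none of their intervals is adjusted for this.

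The members varied little with each other from spot to spot. Over the 28 pairs of members, the correlation across spots had a median r of 0.03 in the control and 0.06 in the transgenic section. The highest pair in the transgenic section was Sgca and Sgcb, with r = 0.18. Among genes with at least 1000 UMIs, those most like Sgca in the transgenic section were Ndufb6, Myl2 and Tnnc1 (r = 0.43, 0.43 and 0.42), and those most like Sgcb were Aldoa, Pkm and Cryab (each r = 0.35). Those most like Dag1 were Mt1, Des and Hspb1, with r = 0.31, 0.31 and 0.29, and those most like Dmd were Des, Cfl1 and Vcp, each with r = 0.20. In the control the highest r of any gene with Dmd, Dag1, Sgca or Sgcb was 0.18, that of Lmod2 with Sgca. All these r, and Moran's I above, include the spots with at least 50% erythroid UMIs. There were 40 such spots in the transgenic section and 5 in the control, and no value is given without them.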

How the data were processed

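Visium CytAssist libraries of 1 control and 1 transgenic heart section were used. Reads were processed by the authors in Space Ranger (version 2.0.0, per the file headers), and the labels name builds GRCm39 and mm39. The deposited table gives unnormalized UMI counts of every gene in each tissue-covered spot. The authors also deposited Moran's I per gene, a score that Space Ranger computes, and the array positions of spots (other values), which gave quadrants, edges and maps.

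Counts were summed per section and expressed as CPM of the section total. Poisson intervals, Clopper-Pearson intervals for shares and conditional binomial intervals for ratios were exact, at 95%, and cover counting error only. The floor of 3 counts equals 0.209 and 0.232 CPM. Genes with at least 20 UMIs over both sections were counted. Edge spots had fewer than 6 neighbours over tissue. No p value was computed, since spots are not replicates. The members, lists and rules were chosen with earlier results of these data known. Named genes are the members, their paralogs and, in each other list, the 4 genes at each end of the log2 ratios, if they had 100 UMIs or more. S100a10, Anxa6 and the genes outside these are named after their values were seen. Vps4a, Actc1 and Hba-a1 were not analysed here, and neither were protein sequences. Some other genes of the lists are not reported here and were left out of the counts. On simulated data of the transgenic over control comparison, 97.9% of 190 changed genes had the true ratio inside the interval. These data were Poisson counts alone, so this checks the computation and not any variation between animals, sections or spots. Alternative scalings used TMM factors (edgeR 4.0.16), size factors (DESeq2 1.42.0) or totals without the 50 most abundant genes. Other alternatives were 1 CPM added, the mean over spots, other fold or count limits, and subsets of spots, of which the 2 based on erythroid UMIs were added after the data were seen. Python 3.11.15, numpy 2.4.6, scipy 1.17.1, pandas 2.3.3 and R 4.3.3 were used.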

Additional observations from a re-analysis of the deposited data

How the results depend on the processing

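With 1 section per genotype, neither the animal, the section plane nor the day can be told apart from the genotype. The direction of all 8 members held under all 10 alternatives for their ratios, but several of these could not have changed it. The alternative scalings moved every ratio by -0.16, -0.15 or -0.09, so the 6 lower members could not change direction under them. Adding 1 CPM cannot change the direction of any ratio. The limit of 1000 UMIs per spot kept 99.98% of control and 99.99% of transgenic UMIs. The ratio of Sgcd ranged from -1.31 to -1.13, that of Dysf from -0.69 to -0.42 and that of Sgca from -0.58 to -0.28, while that of Dag1 reached -0.28 and -0.03. Relative to all genes, the median of the members lay between -0.51 and -0.39. Among the counts, medians and paralog shares, 153 comparisons with an alternative stayed within their limits and 9 moved. Among the members' own ratios, spot shares and Moran's I, 75 stayed and 37 moved. None of the ratios changed direction. The share of spots with a Dag1 UMI was 77.0% in the control and 77.3% in the transgenic section. After thinning it was 69.0% and 63.8%, so the order of the sections was reversed. Moran's I of Dmd in the control was 0.0006 as deposited and -0.013 when computed anew. The number of other complex genes at least 2-fold higher, 2 in the report, was 0 with TMM factors, 0 with DESeq2 size factors, 0 without the 50 most abundant genes, 1 in the cardiomyocyte-rich spots and 1 with the mean over spots. In the cardiomyocyte-rich spots the Myof share was 4.09% in the control and 15.0% in the transgenic section, and the transgenic Sgce share was 15.7%. The median r of the member pairs in the transgenic section was 0.12 over 21 tiles of at least 20 spots. The cause was not tested. Low counts limit Dtnb and Myof most. No paired analysis was possible because each group has 1 sample.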
